A study of Mus musculus with 42 samples.

Results

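The transcripts described here are those of 10 heat shock chaperone genes, namely Hsph1, Dnajb1, Bag3, Hspb1, Hspb8, Hspa4, Hspa8, Hsp90aa1, Hspd1 and Hspe1. They were chosen by name, and every probe set annotated to one of these genes alone was kept, which gave 26 of the 45037 probe sets tested and 10 of the 18193 genes they name. Male ddY mice, 5 weeks old on arrival, were given 37.5 μL per g of body weight of a 1.8% solution of VAAM, a mixture of amino acids made to resemble the saliva of Vespa wasp larvae, or the same volume of water, through a feeding tube on 5 days. The liver, brown adipose tissue (BAT) and white adipose tissue (WAT) of 7 VAAM mice and 7 water mice were taken 4 h after the last administration, and total RNA was measured on 1 Affymetrix mouse genome array for each mouse and tissue, 42 arrays in all. Per the methods, all groups shared free feeding and movement until the food was removed on the last day, liver pieces were kept in RNAlater, and the fat was frozen. The fat depot of WAT is not given in the sources used here, and arrays of mice given a casein-like mixture were not analysed here.

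Heat shock chaperones hold unfolded proteins in solution, refold them or pass them on for degradation, and most of their genes are induced together by heat, oxidants and other protein damage through heat shock factor 1. The HSP70 cycle stands at the centre of the system. Hspa8 encodes the constitutive HSP70 of the cytosol, Dnajb1 an HSP40 that delivers clients and speeds ATP hydrolysis, and Hsph1 and Hspa4 encode HSP110 proteins that exchange the nucleotide. Bag3 is another exchange factor, and it couples HSP70 to small heat shock proteins such as Hspb8 and to autophagy. Hspb1 and Hspb8 are small heat shock proteins that bind unfolded clients without ATP, Hsp90aa1 is the inducible HSP90 of the cytosol, and Hspd1 and Hspe1 form the chaperonin of the mitochondrial matrix.

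Heat shock factor binds inverted repeats of the unit GAA. The core was therefore searched as GAANNTTC and TTCNNGAA, each of which reads the same on both strands, in the promoter windows of RefSeq on build GRCm38.p6 (250 bases before to 50 after each start site). Of 32851 windows, 15.1% held such a motif. A motif this short is frequent, so an overlapping row of motifs, in which they share a GAA or TTC, was counted too. A row of 2 was in 0.603% of the windows and a row of 3 in 0.0244%, that is in 8 windows. Windows were found for 8 of the 10 members, and 6 of these held a motif. The stretches of 30 bases that hold the motifs, in capitals, show which members carry the element and how it is built.
Hspe1, chr1:55088053-55088082, plus strand, 3 overlapping motifs, the upstream one beginning at -89 from the start site: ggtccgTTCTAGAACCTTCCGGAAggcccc
Hspb1, chr5:135887801-135887830, plus strand, 2 separate motifs, the upstream one beginning at -117: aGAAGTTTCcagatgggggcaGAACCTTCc
Hsph1, chr5:149636351-149636380, minus strand, 1 motif beginning at -33: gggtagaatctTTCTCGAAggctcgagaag
Hsph1, chr5:149636287-149636316, minus strand, 2 overlapping motifs, the upstream one beginning at 36: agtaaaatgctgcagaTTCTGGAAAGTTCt
Hspb8, chr5:116422844-116422873, minus strand, 1 motif beginning at 2: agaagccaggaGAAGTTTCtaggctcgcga
Bag3, chr7:128523603-128523632, plus strand, 1 motif beginning at 42: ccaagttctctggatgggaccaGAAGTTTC
The Hspe1 element also lies in the promoter window of the downstream Hspd1 start site, because the 2 genes lie head to head on chromosome 1, with start sites at 55088148 for Hspe1 and at 55087932 and 55088243 for Hspd1. The windows of Dnajb1 and Hspa4 held no match, which says only that these letters were not there.

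The deposited values are log2 expression after the distribution free weighted summary. This summary draws the arrays of a tissue together, and the median within-group SD was 1.06e-05 in liver, 1.06e-05 in BAT and 1.41e-05 in WAT. A difference of 2 values is therefore not a fold change, and VAAM minus water is given in units of the pooled within-group SD, ± the standard error (SE), with n = 7 mice in each group. For each gene the values are those of its brightest probe set, taken by the mean of the 42 arrays, unless another is named. Probe sets that can match related transcripts, among them the brightest one of Hspa8, cannot tell these apart. The spread of the members was above that of most probe sets, since 24 of 26 lay above the median SD in liver, 24 in BAT and 22 in WAT. For Hspd1 in liver it was among the lowest, above only 0.271% of the probe sets, so that its values differed in the last deposited decimals. The tissues fitted their labels by their markers, with Apoa1, an apolipoprotein made by hepatocytes, at 14.71 in liver water mice, Ucp1, the uncoupling protein of brown fat, at 14.22 in BAT and Adipoq, the hormone adiponectin, at 14.39 in WAT. WAT also held RNA of other cells. The epididymal gene Lcn8 averaged 9.66 in its water mice, against 6.58 in BAT and 6.42 in liver. The arrays that stood apart on a principal component were VAAM mouse 6 of liver, VAAM mice 3 and 5 of BAT and VAAM mouse 1 of WAT.

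Because the summary draws the arrays of a tissue together, levels differ more between tissues than between VAAM and water whatever the gene. The levels of the members in the tissues are therefore given as a description. The largest gap was that of Hspb1, whose water mean was 7.20 in liver, against 11.59 in BAT and 11.20 in WAT. The 14 liver values lay between 7.20 and 7.21, below every array of both fats. The second Hspb1 probe set had water means of 7.01 in liver, 11.10 in BAT and 11.12 in WAT, so that the pair of probe sets shared the gap to liver but not the order of BAT and WAT. Hspb8, the other small heat shock protein, had the opposite order. Its water mean was 10.41 in liver, against 8.62 in BAT and 9.32 in WAT, and its other probe sets were also highest in liver, with liver minus WAT differences of 1.26 and 1.92. The chaperonin genes had the same order of tissues. Hspd1 averaged 12.56 in liver, 13.04 in BAT and 11.95 in WAT, and Hspe1 averaged 12.21 in liver, 12.52 in BAT and 10.69 in WAT, so that both were highest in BAT, a tissue rich in mitochondria, and lowest in WAT.

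Among the genes of the HSP70 cycle, Hspa8 was highest in WAT, with water means of 11.93 in liver, 11.17 in BAT and 12.51 in WAT. Bag3 averaged 8.21 in liver, 8.59 in BAT and 9.06 in WAT, and Dnajb1 averaged 8.66 in liver, 9.15 in BAT and 9.18 in WAT. Both were thus lowest in liver, though the other Dnajb1 probe set gave only -0.021 for liver minus BAT and -0.17 for liver minus WAT. Hspa4 lay within 0.23 log2 units across tissues, since its liver minus WAT difference was -0.23 and its liver minus BAT difference was -0.0036. Hsph1 averaged 8.56 in liver, 8.42 in BAT and 8.31 in WAT, and Hsp90aa1 averaged 11.17 in liver, 11.30 in BAT and 11.70 in WAT. Some probe sets of these genes disagreed. For liver minus WAT, 2 other Hspa4 probe sets gave 0.66 and 0.60, and for liver minus BAT, an Hsp90aa1 probe set gave 1.42 where the brightest gave -0.13, and an Hspa8 probe set gave -0.45 where the brightest gave 0.77. The other Hsph1 probe set gave -0.038 for liver minus BAT where the brightest gave 0.13. The VAAM mice gave the same gaps, with no probe set of a member off by more than 0.0092 log2 units. The summary leaves little room for another outcome, so that this is no separate support. In limma, all 10 members passed an adjusted p of 0.05 in each contrast of water mice, but so did 99.8% of all probe sets for liver against WAT, 99.7% for liver against BAT and 99.8% for BAT against WAT, so that the call says nothing about the members. The tissues differ in their summary as well as in their cells, and the arrays look to have been summarized tissue by tissue, so that the summary and the tissue cannot be told apart. Fewer cells of a type and less RNA per cell cannot be told apart in these samples either.

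The order of close levels depended on the scaling. The median liver minus WAT difference of all probe sets was -0.12 as deposited and 0.011 after quantile normalization of the arrays, and the called probe sets, 16733 higher and 28208 lower in liver as deposited, became 23013 higher and 21830 lower. For BAT minus WAT they were 16634 higher and 28296 lower as deposited, and 23448 higher and 21372 lower after quantile normalization. The members' gaps named above that exceeded 1 log2 unit kept their sign, and those of Hspb1 became -3.83 for liver minus WAT and -4.32 for liver minus BAT. For BAT minus WAT, Dnajb1 had -0.029 as deposited and 0.28 after quantile normalization, and Hspa4 had -0.23 and 3.4e-06. The neighbours BAT and WAT therefore have no settled order for these 2 genes. The other Dnajb1 probe set turned to 0.0059 for liver minus BAT and 0.19 for liver minus WAT. By that probe set the place of liver is not settled either.

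**Figure D1:**
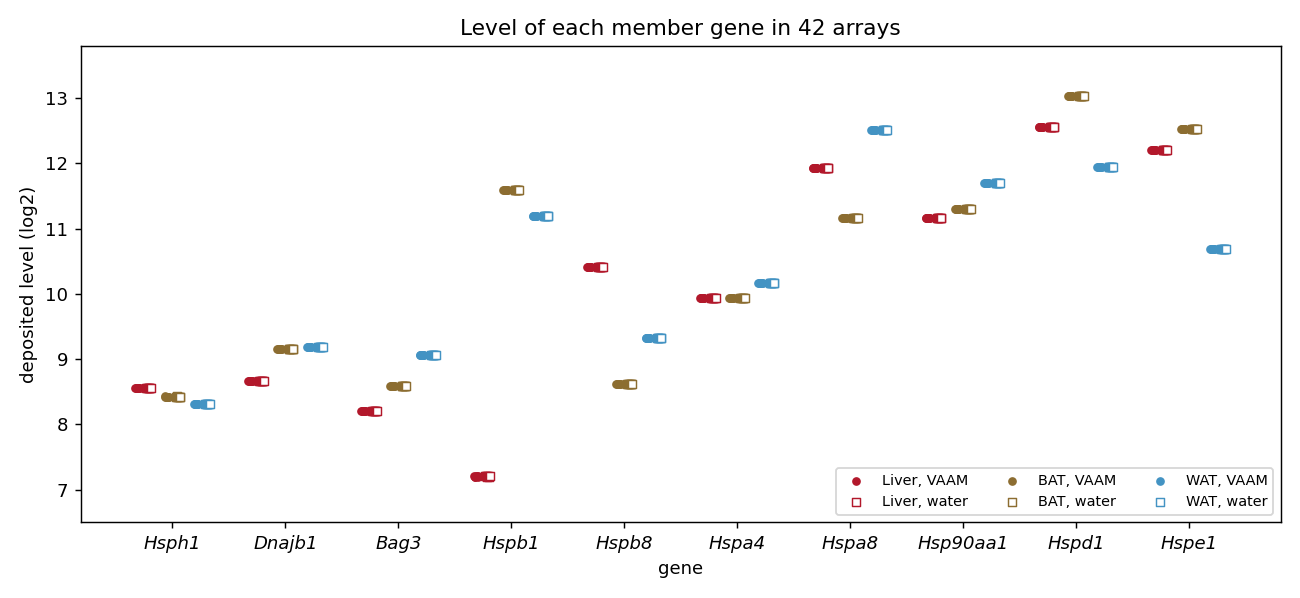
Deposited log2 level (vertical axis) of the 10 genes (horizontal axis) in each of the 42 arrays, in liver, BAT and WAT, with VAAM mice as filled circles and water mice as open squares to their right. The mice of a tissue coincide at this scale, and Hspb1 has the widest gap, between 7.20 in liver and 11.59 in BAT among water mice.

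Against water, VAAM gave no difference in these genes that passed correction over all probe sets. In limma, 0 of the 26 probe sets had an adjusted p under 0.05 in any tissue, and the lowest adjusted p among them was 0.502 in liver, 0.946 in BAT and 0.9998 in WAT. No probe set of the table passed either, so that 0% was called in liver, 0% in BAT and 0% in WAT. At an unadjusted p under 0.05, 1 of 26 probe sets passed in each tissue, while 9.09% of all probe sets passed in liver, 5.1% in BAT and 3.76% in WAT. The 7 VAAM mice overlapped the 7 water mice for all 26 probe sets in every tissue, and among all probe sets 0.155% did not overlap in liver, 0.0955% in BAT and 0.0488% in WAT. The count of all probe sets past the adjusted p depended on the fit. In 1 fit over 42 arrays, which pools the spread of the tissues, 326 were higher and 365 lower in liver. There were 101 and 214 in BAT and 67 and 62 in WAT. In liver, quantile normalization and a replicate block called 1 probe set each.

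The direction of the small differences is given as a description. In liver, 9 of the 10 genes averaged higher in VAAM mice, with a median of 0.39 SD, beside 47.6% of the 18193 genes averaging higher and a median of -0.039 SD. In BAT, 7 of 10 averaged higher with a median of 0.29 SD, beside 51.8% and 0.027 SD for all genes. In WAT, 4 of 10 averaged higher with a median of -0.14 SD, beside 50.3% and 0.0045 SD. The genes of a tissue share their mice, so that these counts are not of independent genes. The WAT median was 0.14 SD without VAAM mouse 1, which stood apart, and also above 0 without VAAM mouse 4 (0.034), water mouse 1 (0.055) or water mouse 2 (0.082). In liver, skeletal muscle markers, near the lowest levels of the array with a mean of 6.30 in water mice, lay at -0.77 to -0.0040 SD in VAAM mice and 0.18 to 0.71 SD in water mice, with 9 of 10 lower and 3 past the unadjusted p. Their part in the liver values was not tested.

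**Figure D2:**
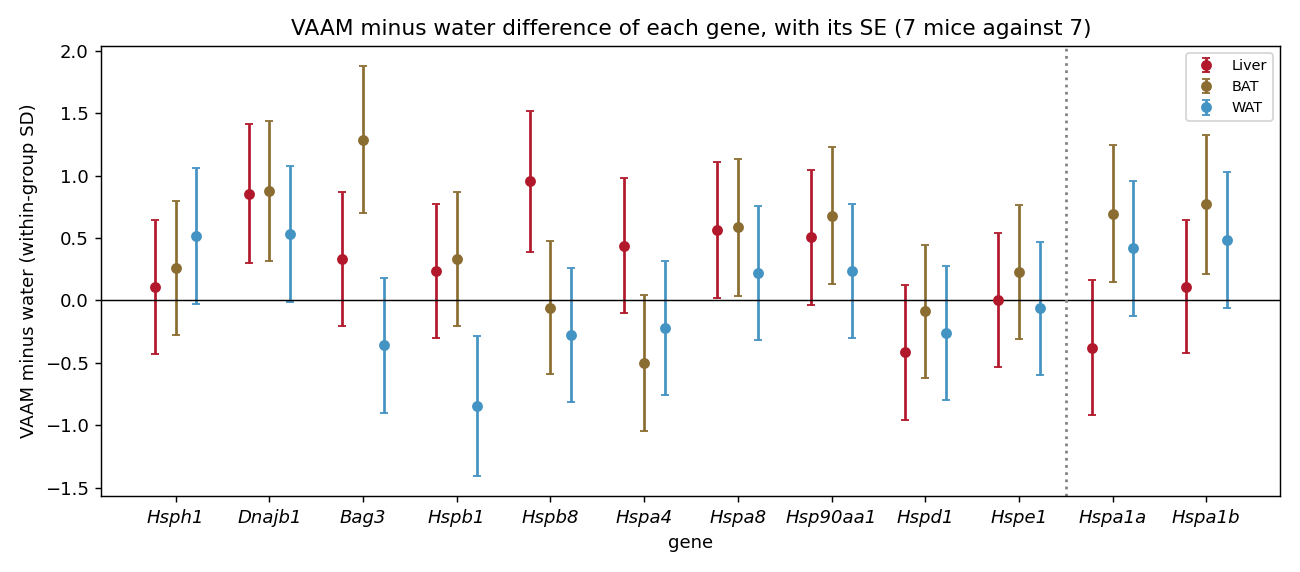
VAAM minus water difference (vertical axis, in pooled within-group SD) of the 10 genes and of the inducible HSP70 genes Hspa1a and Hspa1b (horizontal axis, right of the dotted line), with bars of 1 SE, for liver, BAT and WAT (7 mice against 7 in each). Bag3 in BAT, at 1.29 ± 0.59, stands farthest from 0 among the 10 genes.

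Bag3 gave the largest difference of the 10 genes, in BAT. On a scale of SD from the water mean, its lowest, median and highest values were -0.50, 1.51 and 2.94 in VAAM mice and -1.11, 0.028 and 1.04 in water mice. VAAM mice 1, 3, 5, 6 and 7 lay above every water mouse, and VAAM mice 2 and 4 lay among them. The difference was 1.29 ± 0.59 SD (exact permutation p = 0.0344, limma p = 0.0293, adjusted p = 0.946). It no longer passed the unadjusted p without water mouse 2 (1.12 SD) or 6 (1.15 SD), without VAAM mouse 3 (1.15 SD), 5 (1.13 SD) or 7 (1.17 SD), or without both arrays that stood apart (0.93 SD), and quantile normalization turned it to -0.15 SD. Skeletal muscle markers averaged higher in the VAAM mice of BAT for 10 of 10 genes, none past the unadjusted p, and had r of 0.37 with Bag3 over the 14 mice. Bag3 had r of 0.57 with the mean of 3 T cell markers, all of which averaged higher in VAAM mice, and 0.39 with that of 5 smooth muscle markers. The part of these cells was not tested. Elsewhere Bag3 differed by 0.33 ± 0.54 SD in liver and -0.36 ± 0.54 SD in WAT.

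Dnajb1, the HSP40 partner of HSP70, averaged higher in VAAM mice in all tissues, without passing the test. Its other probe set gave 0.14 ± 0.54 SD in liver, 0.48 ± 0.54 SD in BAT and 0.059 ± 0.53 SD in WAT. In liver its lowest, median and highest values were -0.32, 0.73 and 2.79 in VAAM mice and -1.28, -0.13 and 1.88 in water mice, with a difference of 0.85 ± 0.56 SD (exact permutation p = 0.141). In BAT they were -0.12, 0.12 and 3.59 in VAAM mice and -0.21, 0.023 and 0.23 in water mice, with a difference of 0.88 ± 0.56 SD (exact permutation p = 0.0740). The BAT difference rested on VAAM mice 3 and 5, at 2.0 and 3.6 SD, while the rest lay between -0.12 and 0.41 SD. In WAT the values were -0.68, 0.40 and 2.74 in VAAM mice and -1.22, 0.11 and 1.37 in water mice, with a difference of 0.53 ± 0.54 SD. In liver Dnajb1 passed the unadjusted p of limma without water mouse 6, at 1.38 SD.

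The mouse with the highest Dnajb1 in BAT, and that in WAT, also had the highest values of the inducible HSP70 genes, which belong to the wider lists. In BAT, Hspa1a ran to 3.67 SD and Hspa1b to 3.67 SD in VAAM mouse 5, while the next VAAM values were 0.92 and 1.20 SD. In WAT, VAAM mouse 1 had 3.39 SD for Hspa1a and 3.11 SD for Hspa1b, with the next VAAM values at 0.33 and 0.54 SD. VAAM minus water was 0.70 ± 0.55 SD for Hspa1a and 0.77 ± 0.55 SD for Hspa1b in BAT, 0.42 ± 0.54 and 0.48 ± 0.54 SD in WAT, and -0.38 ± 0.54 and 0.11 ± 0.53 SD in liver (exact permutation p between 0.146 and 0.831). These 2 genes are near-identical copies, and their probe sets may share transcripts. The spread of Hspa1a was above 99.86% of all probe sets in BAT and that of Hspa1b above 99.87%.

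**Figure D3:**
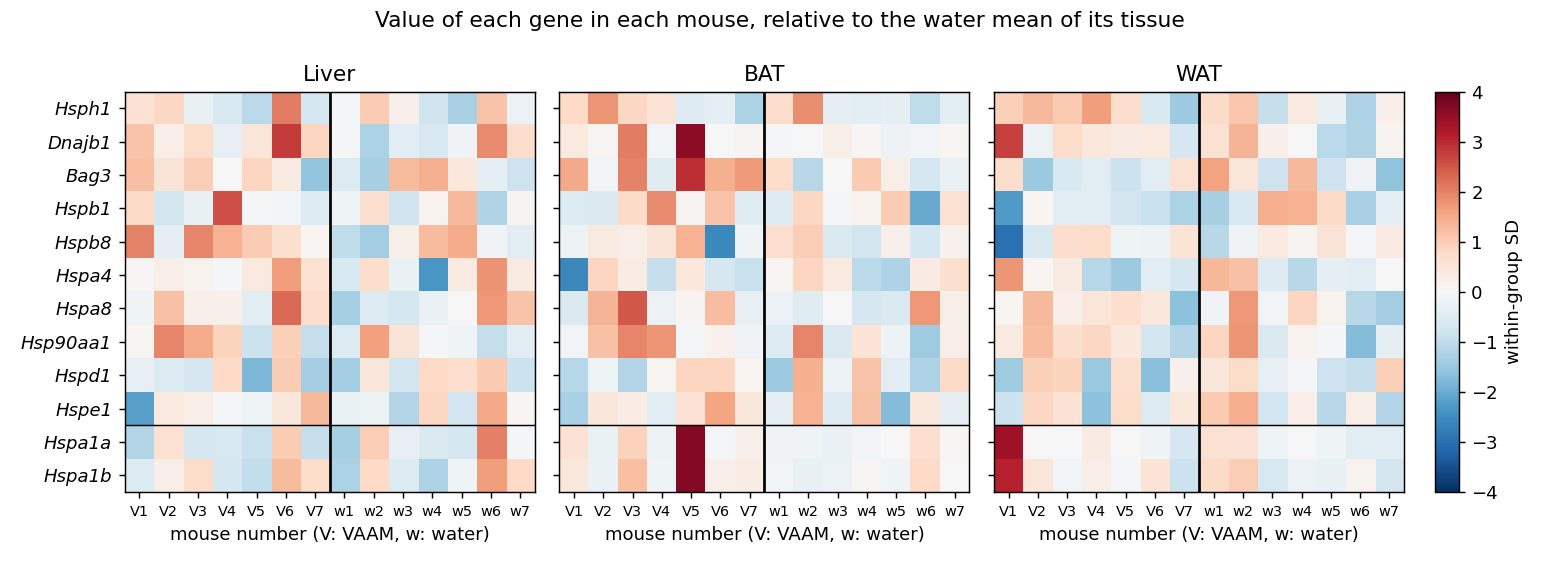
Value of each gene (rows) in each mouse (columns; V for VAAM, w for water) as the distance from the water mean of its tissue in within-group SD, red above and blue below. The red cells of VAAM mouse 5 in BAT and of VAAM mouse 1 in WAT reach 3.67 and 3.39 SD for Hspa1a.

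The HSP110 genes did not pass the test either. Hsph1 in liver had a lowest, median and highest value of -1.09, -0.29 and 2.04 SD in VAAM mice and -1.30, -0.033 and 1.14 SD in water mice. In BAT these were -1.27, 0.56 and 1.77 SD in VAAM mice and -1.02, -0.36 and 1.87 SD in water mice. In WAT they were -1.44, 0.95 and 1.66 SD in VAAM mice and -1.24, 0.19 and 1.11 SD in water mice. The groups lay over each other throughout, and the differences were 0.11 ± 0.53 SD in liver, 0.26 ± 0.54 SD in BAT and 0.51 ± 0.54 SD in WAT. Over single arrays left out, the Hsph1 difference ran between -0.26 and 0.32 SD in liver, between 0.0051 and 0.67 SD in BAT and between 0.32 and 1.01 SD in WAT. Hspa4 differed by 0.44 ± 0.54, -0.50 ± 0.54 and -0.22 ± 0.54 SD in liver, BAT and WAT. Its 3 other probe sets had the opposite sign in BAT, at 0.42, 0.69 and 0.31 SD, and mixed signs in liver (0.69, 0.31 and -0.33 SD) and in WAT (-0.50, -0.22 and 0.47 SD).

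Hspa8 differed by 0.56 ± 0.54 SD in liver, 0.58 ± 0.55 SD in BAT and 0.22 ± 0.54 SD in WAT. The dimmest of its 4 probe sets, at 6.54 in liver and 7.36 in WAT water mice, gave larger values. All 7 VAAM mice exceeded the water median in liver, with a difference of 1.28 ± 0.59 SD (exact permutation p = 0.0297, limma adjusted p = 0.502), and all 7 in WAT, with 1.54 ± 0.61 SD (exact permutation p = 0.0111, limma adjusted p = 0.9998). In BAT the same probe set gave -0.087 ± 0.53 SD. These and Bag3 in BAT were the 3 cases past an unadjusted p of 0.05 among the members. The other Hspa8 probe sets gave between 0.15 and 0.60 SD in liver and between -0.098 and 0.66 SD in WAT.

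Neither small heat shock protein passed the test in any tissue. Hspb8 in liver had a lowest, median and highest value of -0.40, 1.02 and 1.97 SD in VAAM mice and -1.39, -0.14 and 1.48 SD in water mice, with a difference of 0.95 ± 0.56 SD (exact permutation p = 0.102). Its 2 other probe sets gave 0.52 and 0.79 SD there, and 6 of 7 VAAM mice exceeded the water median for each of the 3. It passed the unadjusted p without water mouse 4 (1.22 SD) or 5 (1.30 SD) or VAAM mouse 2 (1.24 SD). In BAT and WAT it differed by -0.057 ± 0.53 and -0.28 ± 0.54 SD. Hspb1 in WAT had -2.25, -0.73 and 0.079 SD in VAAM mice and -1.32, -0.40 and 1.47 SD in water mice. Only 1 of 7 VAAM mice exceeded the water median, and the difference was -0.85 ± 0.56 SD (exact permutation p = 0.138), with -0.81 ± 0.56 SD for its other probe set. In liver and BAT Hspb1 differed by 0.24 ± 0.54 and 0.33 ± 0.54 SD.

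The brightest probe set of Hsp90aa1 averaged higher in VAAM mice in each tissue, without passing the test. In BAT its lowest, median and highest values were -0.14, 0.17 and 1.97 SD in VAAM mice and -1.42, -0.20 and 1.94 SD in water mice, and all 7 VAAM mice exceeded the water median. The difference was 0.68 ± 0.55 SD in BAT (exact permutation p = 0.228), 0.51 ± 0.54 SD in liver and 0.24 ± 0.54 SD in WAT. Without water mouse 2 it was 1.21 SD in BAT and passed the unadjusted p of limma. The 4 other probe sets of Hsp90aa1 did not share one direction, and lay between -0.87 and 0.20 SD in liver, between -0.32 and 0.72 SD in BAT and between -0.11 and 0.29 SD in WAT. For the lowest of them in liver, at -0.87 ± 0.56 SD, 0 of 7 VAAM mice exceeded the water median (exact permutation p = 0.131). Of the mitochondrial chaperonin, neither gene passed the test, with Hspd1 at -0.42 ± 0.54, -0.088 ± 0.53 and -0.26 ± 0.54 SD and Hspe1 at 0.0018 ± 0.53, 0.23 ± 0.54 and -0.064 ± 0.53 SD in liver, BAT and WAT. The other Hspe1 probe set gave 0.87 ± 0.56 SD in liver, where 6 of 7 VAAM mice exceeded the water median (exact permutation p = 0.124), 0.53 ± 0.54 SD in BAT and 0.23 ± 0.54 SD in WAT.

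Rank products, the test that the methods name, ranks differences on the deposited scale, where probe sets with a wide spread come first. It called 5 member probe sets in liver, 5 in BAT and 1 in WAT at a false discovery rate under 0.05, beside 3.86% of all probe sets in liver, 4.07% in BAT and 3.32% in WAT. In liver these were Hspb8, both Hspb1 and 2 Hspa8 probe sets, in BAT both Hsph1, 1 Hspa4 and 2 Hsp90aa1 probe sets, and in WAT Hsph1. An Hspb1 probe set in liver and an Hsp90aa1 probe set in BAT were called both higher and lower. The remaining ones were called higher. After scaling to an SD of 1, 0 of 26 were called in any tissue. Of all probe sets called on the deposited scale in liver, 95.1% lay among the 10% with the widest spread, where 16 of the 26 member probe sets lay in liver, 16 in BAT and 5 in WAT.

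Other genes of protein folding were described by 8 lists of 77 names, which also hold heat shock factors, mitochondrial proteases and cold-inducible RNA-binding proteins, and 72 were measured. The shares of all probe sets past the unadjusted p, 9.09% in liver, 5.1% in BAT and 3.76% in WAT, and of all genes averaging higher, 47.6%, 51.8% and 50.3%, stand beside the counts. In liver 40 averaged higher and 32 lower in VAAM mice, with 3 higher and 1 lower past an unadjusted limma p of 0.05. In BAT 47 averaged higher and 25 lower, with 5 and 1 past it, and in WAT 44 averaged higher and 28 lower, with 2 and 0 past it. None passed after adjustment. In BAT the 5 higher genes were all chaperones of the endoplasmic reticulum, a list with 13 of 15 genes higher and a median of 0.69 SD. They included the lectin chaperones Canx, at 1.53 ± 0.61 SD (exact permutation p = 0.0192), and Calr, at 1.51 ± 0.61 SD (exact permutation p = 0.000583, the smallest that the exact test allows), and Dnajc3, a cochaperone of BiP, at 1.46 ± 0.60 SD (exact permutation p = 0.0198). Their adjusted p was 0.926 each in limma. The same list had 9 of 15 higher in liver and 13 of 15 in WAT, with medians of 0.18 and 0.25 SD and 0 genes past the unadjusted p in either. No test of a list was made.

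Outside the endoplasmic reticulum few genes of the lists passed the unadjusted p. In liver these were the heat shock factor Hsf2 at 2.11 ± 0.67 SD (exact permutation p = 0.00233, limma adjusted p = 0.335), the HSP90 cochaperone Sugt1 at 1.16 ± 0.58 SD, the cochaperone Dnajc7 at 1.47 ± 0.60 SD and the mitochondrial HSP90 Trap1 at -1.20 ± 0.58 SD. In WAT they were the small heat shock protein Hspb3 at 2.36 ± 0.70 SD (exact permutation p = 0.00117, limma adjusted p = 0.9998) and Chordc1, another HSP90 cochaperone, at 1.30 ± 0.59 SD. The mitochondrial list, which adds proteases to the partners of Hspd1 and Hspe1, had 8 of 9 genes lower in BAT with a median of -0.68 SD, and the protease subunit Clpp at -1.49 ± 0.60 SD (exact permutation p = 0.00641, limma adjusted p = 0.926). That list had 6 of 9 genes higher in liver and 3 of 9 in WAT. Of the remaining lists, the TRiC/CCT chaperonin, which folds actin and tubulin, had medians of 0.041, -0.042 and -0.11 SD in liver, BAT and WAT and no gene past the unadjusted p.

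Whether VAAM minus water differed between tissues was tested on values scaled to unit within-group SD. Of the 30 combinations of the 10 genes and 3 pairs of tissues, 0 passed an adjusted p of 0.05 in limma and 1 had an unadjusted p under 0.05, with a lowest adjusted p of 0.610. The 1 past the unadjusted p was Bag3 in BAT minus WAT, at 1.65 SD with a limma adjusted p of 0.884. Of all 45037 probe sets, 4552 had an unadjusted limma p under 0.05 for liver minus WAT, 3768 for liver minus BAT and 2335 for BAT minus WAT. Past the adjusted p were 112, 69 and 9 of them, so that the test did call other probe sets.

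The members were then compared across mice, as deviations from the mean of the group in the 14 mice of a tissue. There were 7 pairs in 3 tissues, 21 relations, with permutations within groups. Hsph1 and Hsp90aa1 were the pair that passed. In WAT they had Pearson's r of 0.92 (permutation p = 1e-05, the smallest that the resamples can give, adjusted p = 0.00021) and Spearman's rho of 0.93 (permutation p = 4e-05, adjusted p = 0.00084). The relation was 0.96 within VAAM mice and 0.92 within water mice, 0.88 without the 2 mice farthest from the median of Hsph1, and 0.92 without the array that stood apart. After quantile normalization r was 0.80 (adjusted p = 0.0292), rho had an adjusted p of 0.312 and r without the 2 farthest mice was 0.15. In BAT the same pair had r of 0.68 (permutation p = 0.0135, adjusted p = 0.0652) and rho of 0.63 (permutation p = 0.0259, adjusted p = 0.178), and in liver r of 0.42 (permutation p = 0.168, adjusted p = 0.272) and rho of 0.40 (permutation p = 0.174, adjusted p = 0.406).

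**Figure D4:**
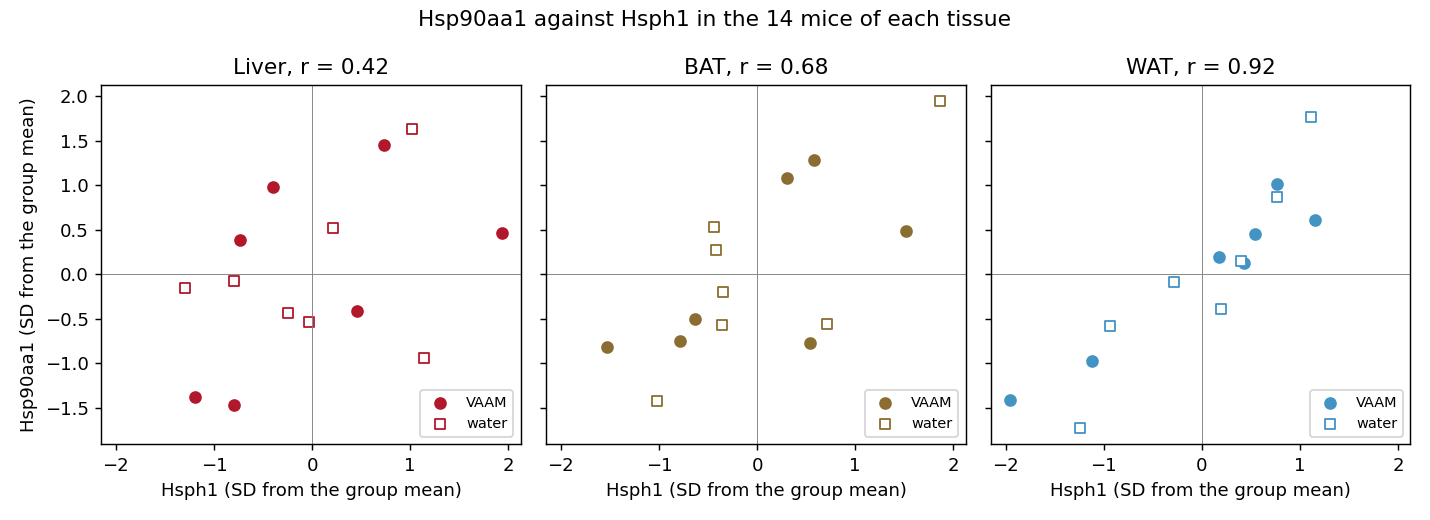
Hsp90aa1 (vertical axis) against Hsph1 (horizontal axis), both in within-group SD from the group mean, in the 14 mice of liver, BAT and WAT, with VAAM mice as filled circles and water mice as open squares. The points of WAT lie along a line with r of 0.92, those of BAT and liver less closely, with r of 0.68 and 0.42.

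The other relations did not pass as deposited. Hspd1 and Hspe1, which share the promoter element shown above, had r of 0.17 in liver (adjusted p = 0.809), 0.58 in BAT (permutation p = 0.0464, adjusted p = 0.139) and 0.64 in WAT (permutation p = 0.0186, adjusted p = 0.0652), with rho of 0.26, 0.52 and 0.56. In WAT their r was 0.92 within VAAM mice and 0.29 within water mice. The liver values of Hspd1 differed only in the last deposited decimals. Bag3 and Hspb8, whose proteins bind each other, had r of 0.70 in liver (permutation p = 0.00956, adjusted p = 0.0652) and rho of 0.74 (permutation p = 0.00672, adjusted p = 0.0706), with r of 0.60 without the 2 farthest mice. In BAT and WAT they had r of -0.026 and -0.43. Hsph1 and Hspa8 had r of 0.66 in WAT (permutation p = 0.0130, adjusted p = 0.0652), but 0.34 without the 2 farthest mice, so that it rested on those mice. Hspb1 and Hspb8 had r of 0.56 in WAT (permutation p = 0.0165, adjusted p = 0.0652) and rho of 0.50. Without the array that stood apart their r was 0.38 (permutation p = 0.223), with -0.33 within VAAM mice and 0.66 within water mice. Quantile normalization changed these calls, and 7 relations then passed by Pearson's r, that of Hsph1 and Hsp90aa1 in WAT included. Hspd1 and Hspe1 had r of 0.99 in BAT (permutation, adjusted p = 0.0022) and 0.98 in WAT (permutation, adjusted p = 0.0044). Their rho in BAT was 1, yet its permutation p of 0.00022 was above the smallest that the resamples can give. Some values were therefore tied there, and r rested on fewer distinct values than mice. The rho of this pair in WAT was 0.83 (permutation p = 0.00066). In WAT, Bag3 and Hspb8 had r of 0.98 (permutation, adjusted p = 0.0012), opposite in sign to the deposited values, Hspb1 and Hspb8 had 0.97 (permutation, adjusted p = 0.0123), and Hsph1 had 0.76 with Dnajb1 and 0.82 with Hspa8 (permutation, adjusted p = 0.0292 each), or 0.12 and 0.21 without the 2 farthest mice. By rho, the Hspd1 and Hspe1 pair in both fats and Bag3 with Hspb8 in WAT passed.

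Over all 45 pairs of members the r is given as a description, since the genes share their arrays. Its median was 0.13 in liver, 0.049 in BAT and 0.12 in WAT, beside -0.00032, 0.017 and -0.035 for members with the other genes. It was above 0 for 25 of the 45 pairs in liver, 27 in BAT and 32 in WAT. The lowest r was -0.49 in liver, -0.46 in BAT and -0.71 in WAT. In WAT the lowest was Hspb8 with Hspa4, and Hspb8 had -0.66 with Dnajb1. Pairs over 0.6 were 8.89% in liver, 6.67% in BAT and 11.1% in WAT, beside 2.74%, 2.78% and 6.35% of the members' r with the other genes. Besides those named, they were Dnajb1 with Hspa8 (0.74), Dnajb1 with Hspa4 (0.62) and Hspa4 with Hspa8 (0.62) in liver, Dnajb1 with Bag3 (0.64) and Hspb1 with Hsp90aa1 (0.65) in BAT, and Hspa8 with Hsp90aa1 (0.78) and Dnajb1 with Hspa4 (0.71) in WAT.

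Hsph1 was also set against every gene. In liver the 5 genes most like it over the 14 mice were Dhx29 (r of 0.93), Chtf8 (0.89), Stip1 (0.88), Mars1 (0.87) and Ifrd2 (0.86), of which Stip1 encodes the cochaperone that joins HSP70 to HSP90. In BAT they were Prr14l (0.91), Hoxb4 (0.88), Kif24 (0.87), D030056L22Rik (0.86) and Rnpep (0.86). In WAT they were Arg2 (0.97), Atp1b1 (0.97), Slc27a2 (0.97), Pkhd1 (0.96) and Xylb (0.96). The nearest other member stood at rank 570 of 18192 in liver (Hspa4), 136 in BAT (Hsp90aa1) and 49 in WAT (Hsp90aa1). From the side of Hsp90aa1, Hsph1 stood at rank 5 in WAT, and Stip1 was the gene most like Hsp90aa1 in BAT (0.89).

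In WAT some members moved with markers of other cells. The mean of 8 epididymal markers, in SD from the mean of the 14 mice, had a lowest, median and highest value of -0.49, -0.14 and 2.39 in VAAM mice and -0.82, -0.73 and 1.40 in water mice, with the highest value in mouse 1 of each group. Across the 14 mice it had r of 0.89 with Hspa4, 0.76 with Dnajb1 and -0.87 with Hspb8. The mean of 7 epithelial markers had r of 0.84 with Dnajb1, 0.75 with Hspa4 and -0.80 with Hspb8. It had 0.67 with Hsph1 and 0.63 with Hsp90aa1, and the mean of 10 skeletal muscle markers had -0.77 and -0.79 with these 2 genes. Adipocyte markers had -0.80 with Dnajb1, -0.73 with Hspa4 and 0.77 with Hspb8. Endothelial markers had -0.83, -0.79 and 0.84 with the same genes. All these r include VAAM mouse 1, whose array stood apart, and whether they hold without it was not tested. None of these markers passed an adjusted p between VAAM and water, and the part of other cells in these relations was not tested.

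The labels do not say whether a number marks the same mouse in every tissue. Over all genes, a sample of BAT was most like its own number in WAT for 10 of 14 numbers, and one of liver most like its own number in BAT for 8 and in WAT for 4. Among the 18193 genes, 58 had r over 0.9 between liver and WAT of same-numbered mice, 36 between liver and BAT and 61 between BAT and WAT, and 0 had r under -0.9 in any pair of tissues. The median r of same-numbered samples was 0.097 for liver and BAT, 0.077 for liver and WAT and 0.14 for BAT and WAT. If a number is a mouse, some members varied together across its tissues. What else a number may mark, such as an order of handling, is not stated and cannot be told apart from the mouse. The relation was computed for the 10 genes in 3 pairs of tissues, 30 relations, chosen after the data had been seen. Hsph1 had r of 0.81 between BAT and WAT (permutation p = 0.00051, adjusted p = 0.0153) and rho of 0.85 (permutation p = 0.00047, adjusted p = 0.0141), with r of 0.82 without the 2 farthest mice and 0.81 and 0.80 within VAAM and water mice. It had 0.28 between liver and BAT and -0.14 between liver and WAT.

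Hsp90aa1 had r of 0.76 between liver and BAT (permutation p = 0.00338, adjusted p = 0.0392), 0.74 between BAT and WAT (permutation p = 0.00574, adjusted p = 0.0430) and 0.62 between liver and WAT (permutation p = 0.0218, adjusted p = 0.0936). Its rho was 0.75, 0.69 and 0.50 (adjusted p = 0.0649, 0.0799 and 0.288, permutation). Water mouse 2 had the highest Hsp90aa1 of the water mice in all 3 tissues, at 1.63 SD in liver, 1.94 SD in BAT and 1.77 SD in WAT, and VAAM mice 2 and 3 were above the water mean in each. Hspb1 had r of 0.72 between liver and BAT (permutation p = 0.00392, adjusted p = 0.0392) and rho of 0.70 (permutation p = 0.00863, adjusted p = 0.0799), with r of 0.54 without the 2 farthest mice. Without the arrays that stood apart 5 relations passed. Hsp90aa1 between liver and BAT, at r of 0.76 with an adjusted p of 0.0599 (permutation), was no longer among them, and Hsp90aa1 between liver and WAT (r of 0.70) and Hspa8 between liver and BAT (r of 0.75) were, with an adjusted p of 0.0482 each (permutation). By rho these latter relations did not pass, at 0.60 and 0.43 (adjusted p = 0.161 and 0.477, permutation). Hspd1 had the lowest r as deposited, -0.68 between liver and WAT (permutation p = 0.0131, adjusted p = 0.0788), with rho of -0.66 (permutation p = 0.0217, adjusted p = 0.13). After quantile normalization none of the 26 relations with a value passed, with r of 0.095 for Hsph1 and 0.69 for Hsp90aa1 between BAT and WAT, and 0.18 for Hsp90aa1 and 0.40 for Hspb1 between liver and BAT. Dnajb1 and Hspb8 did not pass in any pair of tissues, with r between -0.25 and 0.066 for Dnajb1 and between -0.17 and 0.047 for Hspb8.

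**Figure D5:**
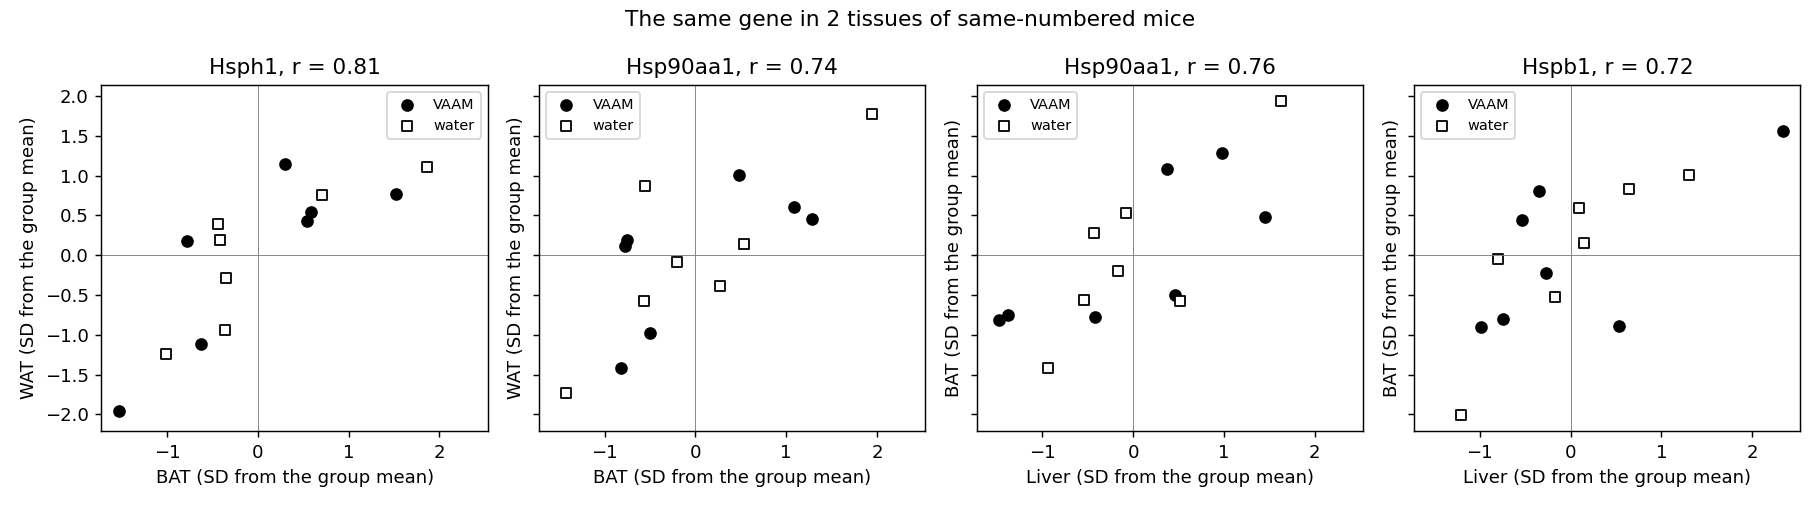
The same gene in a pair of tissues of same-numbered mice, in within-group SD from the group mean, for the 4 relations with an adjusted p under 0.05 (each panel names its gene, and the axes name the tissues). VAAM mice are filled circles and water mice open squares, and r is between 0.72 and 0.81.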

How the data were processed

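The authors scanned the arrays and summarized them by the distribution free weighted method in R (2.7.2 per the submitters' processing notes). The base of the log of the deposited values is not stated and was taken as log2 from their range. Of the series table, 42 columns were used. No column of another sample was in the table. The table holds 45101 probe sets, of which 64 controls were left out, and genes were named from the platform annotation (34945 probe sets name 1 gene, 932 several and 9160 none).

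For each tissue, limma 3.58.1 (R 4.3.3, two-sided) tested VAAM against water, with Benjamini-Hochberg adjustment over all 45037 probe sets, and with exact permutation over the 3432 splits of 14 mice. Rank products and the correlations (100000 two-sided resamples within groups) used Python 3.11.15, numpy 2.4.6, pandas 2.3.3 and scipy 1.17.1. Both tests over all probe sets were tried on simulated data. For rank products all simulated rows had the same spread, so that the trial could not show how unequal spread affects the calls. The labels do not say whether same-numbered VAAM and water arrays of a tissue share anything beyond the number. The number of arrays limits the precision.

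The members and lists were chosen with earlier results of these data known. Members were named by their brightest probe set, Hspa1a and Hspa1b in every tissue, and other chaperones where the unadjusted limma p was under 0.05, at most 3 in a list. The genes Hsf1, Hsp90ab1, Ptges3, Rbm3, Serpina1a, Plin1 and Hbb-b1 of the lists were not analysed here, and Aha1 is another name of the listed Ahsa1. Alternatives were quantile normalization, a filter at the median level, a trend with a robust prior, array weights, other choices of probe set, a replicate block, 1 fit over 42 arrays, rank products, the exact rank sum and leaving out arrays.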

Additional observations from a re-analysis of the deposited data

Results flagged for a closer look

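In 72 groups of 7 mice (12 genes, 3 tissues and both treatments), 15 values stood apart from the others of their group by the gap to the next mouse. Chance flags about 1 in 20 groups when these are independent. Here the genes share their mice, and Hspa1a and Hspa1b are near-identical copies, so that the count of flags cannot be set against that rate. Values are in within-group SD from the water mean. VAAM mouse 1 of WAT had the highest Dnajb1 (2.74, next 0.72), Hspa1a (3.39, next 0.33) and Hspa1b (3.11, next 0.54) and the lowest Hspb8 (-2.99, next -0.60), and water mouse 1 of WAT had the lowest Hspb8 of its group (-1.12, next -0.13). These are the mice with the highest epididymal markers of their groups, whose part was not tested. In BAT, VAAM mouse 5 had the highest Hspa1a (3.67, next 0.92) and Hspa1b (3.67, next 1.20), and water mouse 6 the highest Hspa1a (0.67, next 0.043), Hspa1b (0.80, next 0.057) and Hspa8 (1.75, next 0.25) of its group. VAAM mouse 6 of BAT had the lowest Hspb8 (-2.59, next -0.21). In liver, VAAM mouse 7 had the lowest Bag3 (-1.59, next 0.0022), VAAM mouse 1 the lowest Hspe1 (-2.19, next -0.19) and VAAM mouse 6 the highest Hspa4 (1.68, next 0.62). In WAT, VAAM mouse 7 had the lowest Hspa8 (-1.66, next 0.076). No difference between tissues in the VAAM effect on a member passed its test.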

How the results depend on the processing

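The count of member genes past an unadjusted p of 0.05 was 0 of 10 in liver, 1 in BAT and 0 in WAT. In liver it was 1 with a replicate block (Dnajb1), 2 with rank products, whose calls are at a false discovery rate under 0.05, and 0 to 1 when each array was left out. In BAT it was 0 after quantile normalization, 0 without the arrays that stood apart, 0 with the exact rank sum, 2 in 1 fit over 42 arrays (Bag3 and Dnajb1), 2 with rank products, 0 with rank products at unit SD and 0 to 1 when each array was left out. In WAT it was 1 with rank products and 0 under the other alternatives. The block gave 1 in BAT and 0 in WAT. Within a tissue, same-numbered VAAM and water arrays correlated between -0.19 and 0.48, with 2, 2 and 3 of 7 pairs over 0.1 in liver, BAT and WAT. Quantile normalization turned Bag3 in BAT to -0.15 SD, and the BAT minus WAT levels of Dnajb1 and Hspa4 to 0.28 and 3.4e-06. It raised the correlations between members that passed, 1 as deposited, to 7, with Hspd1 and Hspe1 in liver giving no value because values became constant, and lowered those between tissues, 4 as deposited, to 0. For the same pair in BAT, some values were tied after quantile normalization. The alternatives between tissues, and the correlations between members without the arrays that stood apart, were chosen after seeing the data. The cause was not tested. Of 180 single values per tissue under the alternatives, 19 changed sign in liver, 16 in BAT and 15 in WAT. The medians of the 10 genes moved by less than 1 SD under each alternative run, though in BAT the median became -0.062 SD after quantile normalization and in WAT 0.14 SD without the array that stood apart, with a range of -0.24 to 0.14 SD over single arrays left out. All 10 members passed in each contrast of tissues under each alternative run, the replicate block included, except BAT against WAT after quantile normalization, where 9 passed. Deviations near the last deposited decimals, as for Hspd1 in liver, limit what these values can show.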
